A study of Mus musculus with 12 samples.

Results

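Antioxidant enzymes and the Nrf2 regulators that control many of them were followed in monocytic myeloid-derived suppressor cells (M-MDSCs) of young and aged mice. These 10 genes were Nfe2l2, Keap1, Sod1, Sod2, Cat, Gpx1, Gpx4, Prdx1, Prdx5 and Txn1, chosen by name from the 23420 genes of the deposited count table. All 10 passed the filter on low counts, which kept 9742 genes. M-MDSCs (CD11b+ Ly6G- Ly6Chi cells) were sorted from the bone marrow of male C57BL/6JNIA mice, 6 aged mice of 24 months and 6 young mice of 6 months, with no treatment or allele named in the labels. Each mouse gave 1 RNA-seq library, so the spread below is between mice.

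Nrf2, the product of Nfe2l2, is a transcription factor that Keap1 holds in the cytoplasm and passes to a Cul3 ubiquitin ligase for degradation. Oxidants and electrophiles modify cysteines of Keap1, Nrf2 accumulates, and with a small Maf partner it binds antioxidant response elements near genes for glutathione synthesis, the thioredoxin system and quinone reduction. Superoxide dismutases turn superoxide into hydrogen peroxide, which catalase, glutathione peroxidases and peroxiredoxins remove, and myeloid cells make superoxide in their own oxidative burst. Nrf2 is controlled largely through the stability of its protein, which RNA-seq does not measure.

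Assigned fragments per library ran from 8737941 to 16300374 in aged mice and from 4613239 to 9079237 in young mice. Of all genes tested, 4425 differed with age (45.4%), 22.4% higher and 23% lower in aged mice, or 2185 and 2240 genes against 1682 and 2762 with library totals in place of TMM scaling (edgeR quasi-likelihood test, adjusted p under 0.05), so a call in a single gene was common in these data. Levels are given in CPM, the fragments of a gene relative to all assigned fragments of its library after TMM scaling. Of the monocyte markers, Ly6c2 lay between 605 and 799 CPM in aged mice and between 367 and 595 CPM in young mice, and Csf1r between 93.1 and 205 CPM and between 111 and 150 CPM. Of the 7 monocyte genes 2 were called higher and 1, Itgam, lower (-0.22, adjusted p = 0.0285), where with the gene length offsets described below Ly6c2 (0.15, adjusted p = 0.238) and Itgam (-0.075, adjusted p = 0.469) were not called and Lyz2 was called lower (-0.47, adjusted p = 0.00349). The sum of the monocyte genes overlapped between the ages, from 12501 to 17632 CPM in aged mice and from 14900 to 19741 CPM in young mice. Genes of the neutrophil list were abundant in every library: the 9 neutrophil genes summed to between 130729 and 153762 CPM in aged mice and between 82730 and 129261 CPM in young mice, without overlap. Besides genes of granules this list holds S100a8, S100a9 and Cxcr2. S100a8 (means of 35816 and 21062 CPM in aged and young mice) and S100a9 (21459 and 13744 CPM) were called higher. The granule gene Ltf was not (20903 and 21723 CPM). The sums of the neutrophil genes exceed those of the monocyte genes in libraries labelled as Ly6G- Ly6Chi cells, so what is written of M-MDSCs below holds for the sorted cells as labelled. The resident macrophage genes summed to between 659 and 1658 CPM in aged mice and between 418 and 592 CPM in young mice, also without overlap, and all 9 of those tested were called higher in aged mice. The 6 erythroid genes in the table summed to between 1.18 and 14.6 CPM in aged mice and between 0.391 and 1.12 CPM in young mice, none passed the filter, and Hba-a1 and Hba-a2 were at 0 in every mouse. These zeros do not show that globin RNA was absent, since reads that fit more than 1 place could be dropped in counting. The sample numbers in the file's column headings did not interleave the ages, so whatever they mark and age cannot be told apart.

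Of the 10 genes, 5 rose in aged mice and none fell. Gpx1, Gpx4, Prdx1, Prdx5 and Txn1 were called higher in aged M-MDSCs by 1.48-fold to 2.14-fold, where 22.4% of all genes tested were called higher. In 4 of them, Gpx1, Prdx1, Prdx5 and Txn1, every aged mouse lay above every young mouse, where 9.68% of all genes tested separated the ages in that direction and 21.8% in either direction. Nfe2l2, Keap1, Sod1, Sod2 and Cat did not pass the test. The median log2 fold change of the 10 genes was 0.53 and that of all genes tested 0.0062. With gene length offsets, described below, 3 of the 5 were called (Gpx4, Prdx1 and Txn1) and the median was 0.21. In bulk RNA, a larger share of cells that carry a transcript and more RNA per cell cannot be told apart.

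**Figure D1:**
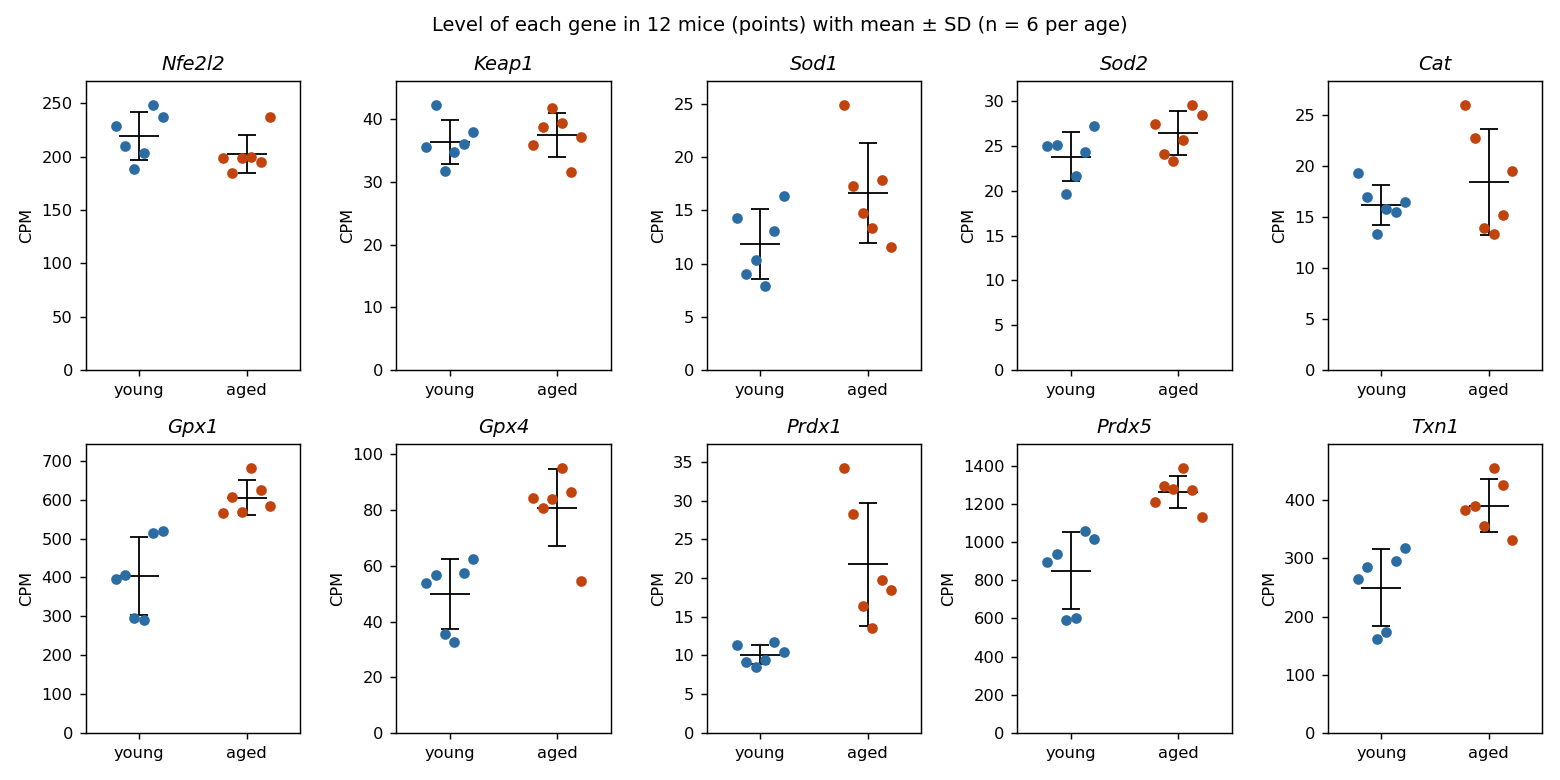
Each panel plots 1 gene in CPM (vertical axis from 0) for 6 young mice (blue) and 6 aged mice (orange), with the mean as a line and the SD as whiskers. The aged and young points do not overlap for Gpx1, Prdx1, Prdx5 and Txn1, whereas for Nfe2l2 and Keap1 the means of 202 and 37.4 CPM in aged mice sit within the range of the young mice.

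Nfe2l2 (mm10 chr2:75675519-75704641, minus strand) encodes Nrf2. In aged mice its level was 185, 199 and 237 CPM (lowest, median and highest), and in young mice 189, 219 and 248 CPM. The aged mice lay inside the young range except for O2, the lowest of all, and the log2 fold change was -0.12 ± 0.079 (SE, adjusted p = 0.236, 95% interval -0.28 to 0.05). The interval excludes a change of the size seen in Prdx1 in either direction. Nfe2l2 was called lower in aged mice in 2 settings, with library totals in place of TMM scaling (-0.20, adjusted p = 0.0302) and without the young mice Y5 and Y6 (-0.21, adjusted p = 0.0473). Scaling by library totals moved the median of all genes to -0.081.

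Keap1 (mm10 chr9:21229730-21239332, minus strand), the adaptor that marks Nrf2 for degradation, had the smallest change of the 10 genes. Its level was 31.6, 38.0 and 41.8 CPM in aged mice and 31.8, 35.8 and 42.2 CPM in young mice (lowest, median and highest). The ranges of both ages were nearly the same, with a log2 fold change of 0.05 ± 0.085 (SE, adjusted p = 0.686, 95% interval -0.14 to 0.23) that became -0.04 with library totals in place of TMM scaling. Per length, Keap1 stood at 0.103 ± 0.0130 of the Nfe2l2 level in aged mice and at 0.0921 ± 0.0106 in young mice (SD, n = 6 each), with overlapping ranges.

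The promoters of the 10 genes were searched for the letters of an antioxidant response element core, TGACNNNGC, on both strands of the 250 bases before each RefSeq start (GRCm38.p6). The core was present in 3 of the 10 windows, those of Prdx1, Sod1 and Nfe2l2, and in 10.2% of all 32851 windows. The Prdx1 match reads TGACTCAGC on the strand opposite to the gene and shares its first bases with the AP-1 core TGANTCA, of which this window holds a further copy, and 0.39% of all windows hold TGACTCAGC. TGANTCA was present in 6.75% of all windows and among the 10 genes in that of Prdx1 alone. Prdx1 had the largest fold change of the 10 genes, whereas Sod1 and Nfe2l2 did not pass the test, and the called genes Gpx1, Gpx4, Prdx5 and Txn1 held neither set of letters. Of 31 windows of genes in a list of classical Nrf2 targets, 5 held TGACNNNGC. Gpx4 has 4 RefSeq starts, of which the one nearest to the start in the count table was used, 55 bases away, and the RefSeq start of Prdx5 lies 461 bases from that in the table. A match is a description of letters and not a measured binding site. The windows with a match, and that of Gpx1 as a called gene without one, are shown 5′ to 3′ on the strand of each gene, with matches to either core in capitals.
Prdx1, chr4:116685349-116685598, plus strand: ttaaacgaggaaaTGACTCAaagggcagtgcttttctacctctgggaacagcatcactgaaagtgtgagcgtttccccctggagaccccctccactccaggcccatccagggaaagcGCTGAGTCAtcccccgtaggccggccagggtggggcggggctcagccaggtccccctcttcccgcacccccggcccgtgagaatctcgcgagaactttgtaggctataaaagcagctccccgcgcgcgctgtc
Sod1, chr16:90220512-90220761, plus strand: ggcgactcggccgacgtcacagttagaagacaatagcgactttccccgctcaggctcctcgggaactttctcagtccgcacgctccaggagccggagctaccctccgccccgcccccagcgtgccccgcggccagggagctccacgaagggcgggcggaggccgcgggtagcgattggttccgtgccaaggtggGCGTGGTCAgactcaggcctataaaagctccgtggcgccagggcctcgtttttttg
Nfe2l2, chr2:75704664-75704913, minus strand: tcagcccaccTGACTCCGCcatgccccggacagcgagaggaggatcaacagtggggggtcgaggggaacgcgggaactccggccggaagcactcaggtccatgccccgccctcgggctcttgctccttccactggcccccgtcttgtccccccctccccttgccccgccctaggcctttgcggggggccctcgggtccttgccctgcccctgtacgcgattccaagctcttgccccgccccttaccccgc
Gpx1, chr9:108338830-108339079, plus strand: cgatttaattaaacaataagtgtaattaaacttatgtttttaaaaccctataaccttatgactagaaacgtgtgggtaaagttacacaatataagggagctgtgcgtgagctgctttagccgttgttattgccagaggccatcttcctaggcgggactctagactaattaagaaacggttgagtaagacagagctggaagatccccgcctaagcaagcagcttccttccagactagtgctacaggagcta
The match in Prdx1 lies 133 to 125 bases before the start, that in Sod1 56 to 48 bases and that in Nfe2l2 240 to 232 bases.

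The superoxide dismutases and catalase did not pass the test. Sod1 (mm10 chr16:90220742-90226324, plus strand), the cytosolic copper-zinc superoxide dismutase, had 11.6, 16.003 and 24.9 CPM in aged mice and 7.94, 11.7 and 16.3 CPM in young mice. The ages overlapped, the aged mouse O1 was the highest, and the log2 fold change of 0.48 ± 0.200 (SE) missed the threshold (adjusted p = 0.0612, 95% interval 0.06 to 0.91). Leaving out the aged mouse O7 (0.58, adjusted p = 0.0250) or the young mouse Y10 (0.61, adjusted p = 0.0246) made Sod1 a called gene, as did GC offsets (0.52, adjusted p = 0.0402). It moved the other way with length offsets (0.036, adjusted p = 0.879), without O1 (0.33, adjusted p = 0.152), without Y6 (0.38, adjusted p = 0.135) and without Y5 and Y6 (0.29, adjusted p = 0.313). Its counts were low, between 42 and 223 fragments per mouse. Sod2 (mm10 chr17:13007839-13018119, plus strand), the manganese enzyme of mitochondria, had 23.3, 26.5 and 29.5 CPM in aged mice and 19.6, 24.6 and 27.2 CPM in young mice. The ages overlapped in most of their range (log2 fold change 0.16 ± 0.095 SE, adjusted p = 0.191, 95% interval -0.05 to 0.36). Cat (mm10 chr2:103453904-103485153, minus strand), the catalase of peroxisomes, had 13.3, 17.4 and 25.98 CPM in aged mice and 13.3, 16.1 and 19.3 CPM in young mice. Its aged values split into O1 and O2, at 25.98 and 22.7 CPM, and the other 4 mice at or below 19.5 CPM, and the log2 fold change of 0.19 ± 0.161 (SE, adjusted p = 0.352) became -0.04 without O1 and O2. The extracellular dismutase gene Sod3 was in the table but too low to be tested.

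Gpx1 and Gpx4, selenoenzymes that spend glutathione, rose. Gpx1 (mm10 chr9:108339080-108340344, plus strand), the cytosolic enzyme, had 567, 595 and 682 CPM in aged mice and 290, 402 and 519 CPM in young mice. Every aged mouse exceeded every young mouse, and the log2 fold change was 0.59 ± 0.134 (SE, adjusted p = 0.00290), which became 0.26 with length offsets and was then not called (adjusted p = 0.0615). Gpx4 (mm10 chr10:80053510-80056439, plus strand), which reduces lipid hydroperoxides in membranes and guards against ferroptosis, had 54.5, 84.1 and 95.2 CPM in aged mice and 32.7, 55.4 and 62.5 CPM in young mice. A single aged mouse, O7 at 54.5 CPM, fell among the young mice, the other 5 lay at 80.7 CPM or above, and the log2 fold change was 0.70 ± 0.164 (SE, adjusted p = 0.00322). Per length, Gpx4 stood at 0.116 ± 0.0178 of Gpx1 in aged mice and at 0.108 ± 0.0103 in young mice (SD, n = 6 each), so the ratio overlapped between the ages. Gpx3, the secreted family member, was the other tested glutathione peroxidase and had the largest rise in its list, from 1.98 ± 0.446 to 4.63 ± 2.23 CPM (log2 fold change 1.21 ± 0.292 SE, adjusted p = 0.00403), and Gpx2, Gpx5, Gpx6, Gpx7 and Gpx8 were too low to be tested. Gpx3 had only 8 to 21 fragments per young mouse.

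Prdx1 (mm10 chr4:116685599-116700000, plus strand), a cytosolic peroxiredoxin that thioredoxin recycles, changed most. It had 13.5, 19.1 and 34.2 CPM in aged mice and 8.57, 9.94 and 11.7 CPM in young mice. The aged mice were all higher but widely spread, with a coefficient of variation of 36.3% against 12.2% in young mice, and the log2 fold change was 1.10 ± 0.201 (SE, adjusted p = 6.63e-04). O1 at 34.2 CPM and O2 at 28.3 CPM stood highest, and these mice also had the highest sums of the resident macrophage genes, 1658 and 882 CPM, where the other aged mice had between 659 and 782 CPM. Without O1 and O2 the log2 fold change of Prdx1 was 0.76 (adjusted p = 0.00147). O1 also had the highest erythroid sum, 14.6 CPM. The part of macrophage or erythroid RNA in the difference was not tested. Counts were again low, between 43 and 307 fragments per mouse.

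Prdx5 (mm10 chr19:6906819-6909645, minus strand), a peroxiredoxin of mitochondria, peroxisomes and cytosol, was the most abundant of the 10 genes. It had 1131, 1273 and 1388 CPM in aged mice and 593, 913 and 1059 CPM in young mice, without overlap (log2 fold change 0.57 ± 0.135 SE, adjusted p = 0.00358), and was not called with length offsets (0.16, adjusted p = 0.169). Among the other tested peroxiredoxins, Prdx2 of the cytosol rose from 5.48 ± 1.077 to 9.04 ± 1.83 CPM (log2 fold change 0.72 ± 0.168 SE, adjusted p = 0.00337) and Prdx3 of mitochondria from 8.63 ± 1.25 to 11.9 ± 1.63 CPM (0.47 ± 0.125 SE, adjusted p = 0.00687), both without overlap between the ages. With length offsets neither was called (Prdx2 0.34, adjusted p = 0.0935, and Prdx3 0.24, adjusted p = 0.108), and Prdx3 was not called without Y5 and Y6 (0.32, adjusted p = 0.0676). Prdx6, which uses glutathione in place of thioredoxin, had 197 ± 15.1 CPM in aged mice and 205 ± 19.2 CPM in young mice (log2 fold change -0.05 ± 0.074 SE, adjusted p = 0.576). Prdx4 of the endoplasmic reticulum was too low to be tested.

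Txn1 (mm10 chr4:57943373-57956411, minus strand), the cytosolic thioredoxin that reduces peroxiredoxins, had 332, 387 and 456 CPM in aged mice and 161, 274 and 318 CPM in young mice. All aged mice lay above all young mice, with a log2 fold change of 0.65 ± 0.153 (SE, adjusted p = 0.00351). Its mitochondrial relative Txn2 rose from 23.4 ± 3.94 to 30.1 ± 4.06 CPM (0.35 ± 0.118 SE, adjusted p = 0.0235), and lost its call in 7 of 24 settings, among them length offsets (0.073, adjusted p = 0.581) and library totals in place of TMM scaling (0.28, adjusted p = 0.0741). It was also not called without O1 (0.29, adjusted p = 0.0561), Y5 (0.32, adjusted p = 0.0550) or Y6 (0.32, adjusted p = 0.0548). Txnrd1, the reductase that recharges Txn1, had 68.0 ± 6.37 CPM in aged mice and 75.4 ± 6.89 CPM in young mice and did not pass the test (-0.15 ± 0.079 SE, adjusted p = 0.131). The differences between the changes of Txn1, Txn2 and Txnrd1 were not tested.

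Within the young group, Y5 and Y6 lay below the other 4 mice for Gpx1, Gpx4, Prdx5 and Txn1, but not for Prdx1, where Y6 at 9.47 CPM was above Y2 at 9.22 CPM. Their sums of the neutrophil genes were also the lowest, 82730 and 83731 CPM, where the other young mice had between 111860 and 129260 CPM. Their sums of the cycling cell genes were the highest of all mice, 1496 and 1474 CPM, where the other young mice had between 834 and 1015 CPM. Of the 10 cycling cell genes, Mki67 (-2.01, adjusted p = 1.34e-04) and Top2a (-0.62, adjusted p = 0.0315) were called lower in aged mice, where 23% of all genes tested were, and Top2a was not called with length offsets (-0.43, adjusted p = 0.0962). Without Y5 and Y6 the log2 fold changes became 0.38 for Gpx1 (adjusted p = 0.00519), 0.46 for Gpx4 (0.0104), 0.35 for Prdx5 (0.00198), 0.41 for Txn1 (0.00302) and 0.996 for Prdx1 (0.00660), so all 5 genes remained called at smaller sizes. Of all 9857 genes tested without these mice, 1392 were called higher. Of the 9 neutrophil genes 5 were called higher in aged mice and none lower, where 22.4% of all genes tested were higher, and after the length correction 1 was. The part of neutrophil or cycling cell RNA in the difference was not tested.

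**Figure D2:**
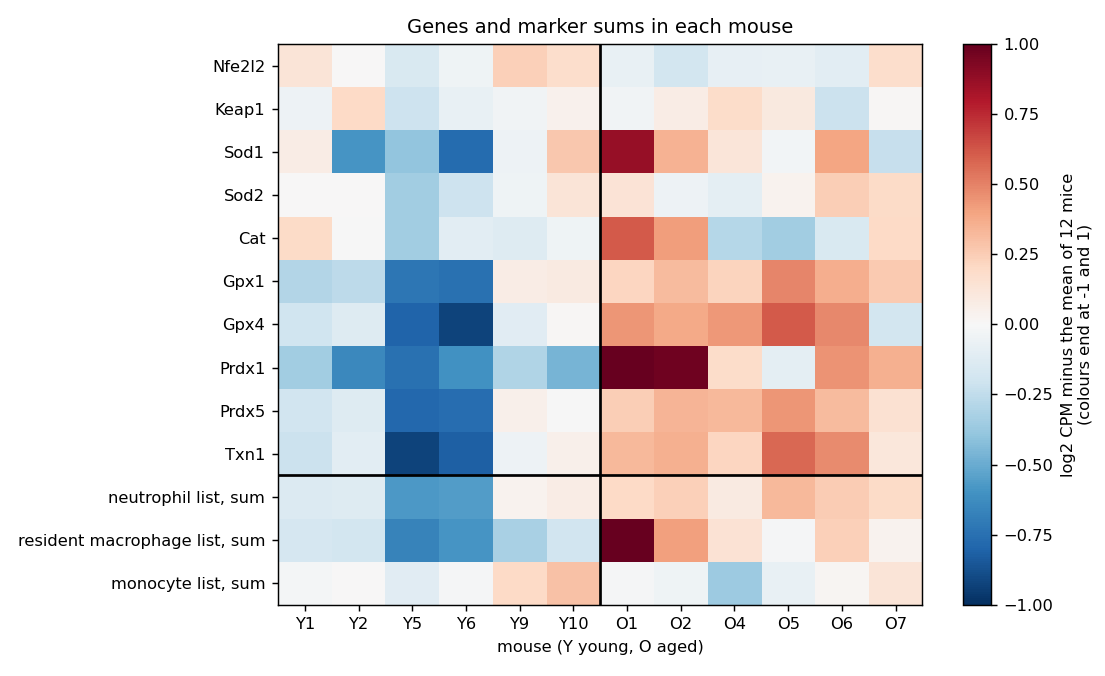
Each cell shows, for 1 mouse (columns, young left of the line), the log2 CPM of a gene or of a marker sum minus its mean over the 12 mice, with colours ending at -1 and 1. Y5 and Y6 are the darkest blue columns for Gpx1, Gpx4, Prdx5, Txn1 and the neutrophil sum, and O1 and O2 are the darkest red for Prdx1, at 1.25 and 0.98, and for the resident macrophage sum.

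The change with age varied with gene length across all genes. Over the 9742 genes tested the log2 fold change was negatively related to gene length (Spearman rho -0.48, across genes, which are not independent replicates), and the 10 genes had a median length of 1309 bases against 2890 bases. When a trend of each library on gene length was taken out, Prdx1 (log2 fold change 0.85, adjusted p = 0.00284), Gpx4 (0.41, adjusted p = 0.0281) and Txn1 (0.32, adjusted p = 0.0471) remained called higher, where 17.3% of all genes tested were. Gpx1 (0.26, adjusted p = 0.0615) and Prdx5 (0.16, adjusted p = 0.169) no longer passed the threshold, and Sod1 fell to 0.04. The median of the 10 genes became 0.21 and that of all genes 0.019. Whether the length trend is technical was not tested.

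**Figure D3:**
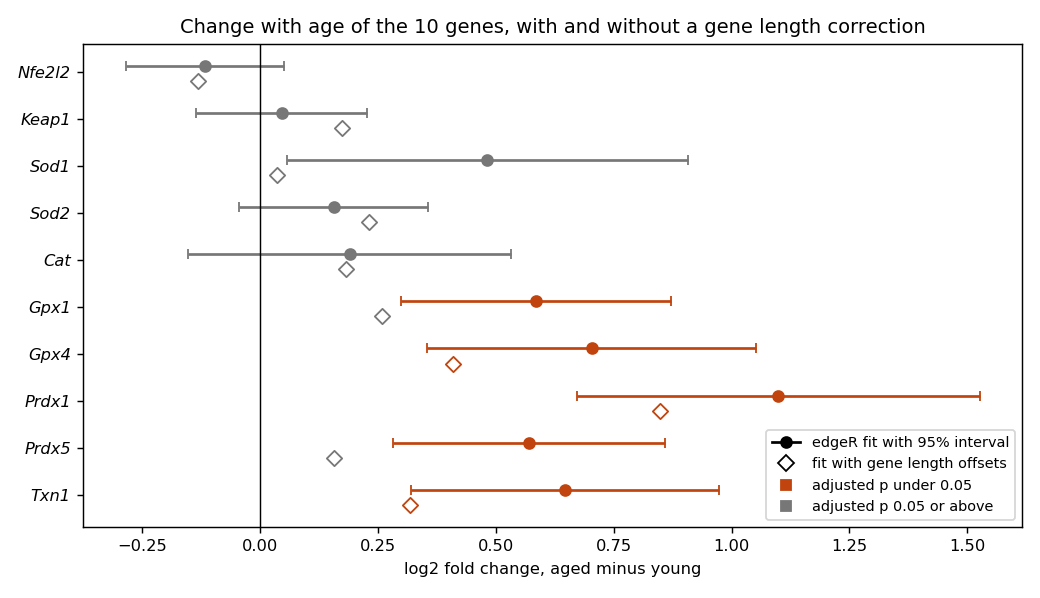
The log2 fold change of each gene, aged minus young, is drawn as a filled circle with its 95% interval, and its value after length offsets as an open diamond, orange where the adjusted p is under 0.05. The correction moves Prdx5 from 0.57 to 0.16 and leaves Prdx1 at 0.85, the farthest right of the diamonds.

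Levels of different genes were compared per length, in CPM per kb of exon. By this measure Prdx5 ranked 22nd, Gpx1 88th and Txn1 159th of the 9742 genes tested, Nfe2l2 678th, Gpx4 1118th and Sod1 2586th, with Prdx1, Keap1, Cat and Sod2 between ranks 4187 and 5468. Sod1, Gpx4, Prdx1 and Txn1 have near copies among other genes and Prdx5 shares part with Trmt112, so their reads could be dropped or misplaced. Their ranks, shares and ratios, here and above, are uncertain by an amount that was not measured. The 10 genes summed to 2995 ± 200 CPM per kb in aged mice and 2034 ± 474 CPM per kb in young mice (SD, n = 6 each), without overlap. This sum was not corrected for the length trend, and Prdx5 and Gpx1, which hold most of it, were not called with length offsets. The largest shares of this sum overlapped between the ages. Prdx5 held 61.2 ± 1.03% of it in aged and 60.6 ± 1.03% in young mice, Gpx1 19.3 ± 0.760% and 18.9 ± 0.942%, and Txn1 12.4 ± 0.719% and 11.6 ± 0.660%. Nfe2l2 held 2.75 ± 0.407% in aged mice and 4.51 ± 0.764% in young mice, and Keap1 0.281 ± 0.0310% and 0.416 ± 0.0842%. The ranges of these 2 shares did not overlap, while the level of neither gene passed the test and the sum itself was higher in aged mice. Txn1 stood at 0.202 ± 0.0141 of Prdx5 in aged mice and at 0.191 ± 0.0100 in young mice, again with overlap.

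**Figure D4:**
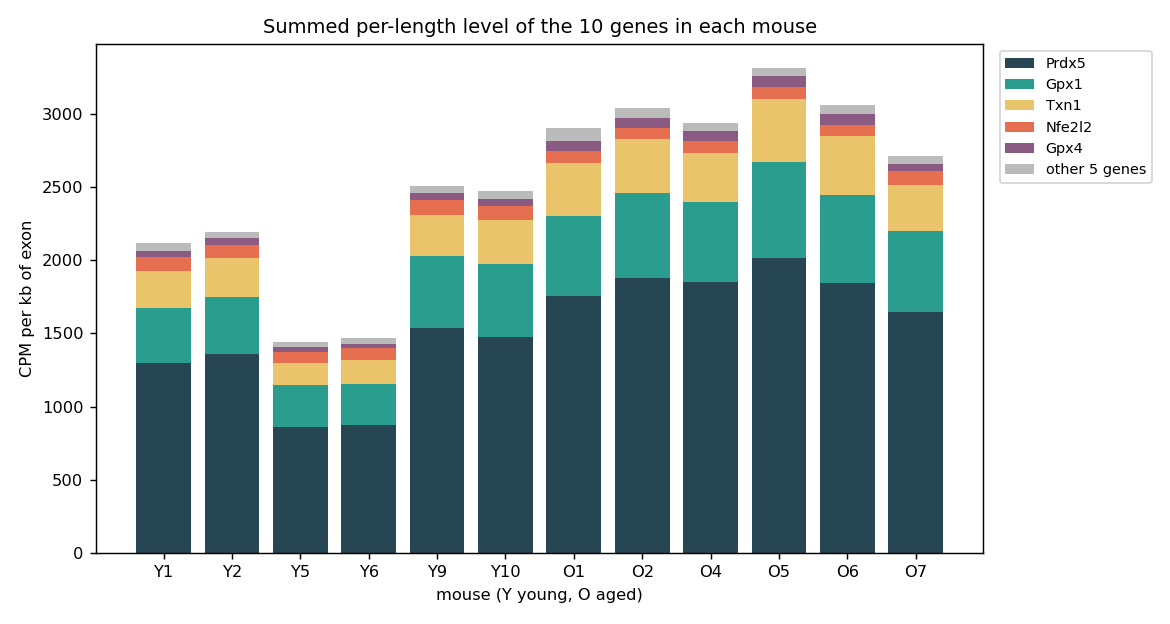
Bars give the level of the 10 genes in CPM per kb of exon (vertical axis from 0) in each mouse, young mice first, stacked by gene. Every aged bar, from 2712 to 3313, is taller than every young bar, from 1443 to 2509, and Prdx5 fills most of each.

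The wider redox pathways were counted in 7 lists, of which 5 also hold members of the 10 genes. Of 18 tested genes of Nrf2 control, 4 rose and 7 fell in aged mice (median log2 fold change -0.13), where 22.4% of all genes tested rose and 23% fell, and after the length correction 5 rose and 4 fell (median -0.073). Of the 7 that fell, only Cul3 and Sesn1 were still called lower then, Mafg and Sesn3 were newly called lower, and the kinase Gsk3b turned from called lower (-0.18, adjusted p = 0.0145) to called higher (0.23, adjusted p = 0.0291), genes named here after their values were seen. The acetyltransferase Ep300, a co-activator of Nrf2 and many other factors, fell from 663 ± 32.9 to 430 ± 44.4 CPM (-0.62 ± 0.073 SE, adjusted p = 2.94e-05), and at -0.20 lost its call after the length correction (adjusted p = 0.0545). Rbx1, the RING subunit of the Cul3 ligase, rose from 40.1 ± 7.14 to 58.2 ± 7.02 CPM (0.54 ± 0.120 SE, adjusted p = 0.00226). Cul3, the scaffold of that ligase, fell from 206 ± 6.77 to 168 ± 14.5 CPM (-0.29 ± 0.063 SE, adjusted p = 0.00196).

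Of 24 tested classical Nrf2 targets, 17 rose and 2 fell (median 0.41), where 22.4% of all genes tested rose and 23% fell, and without Txn1 and Prdx1 15 of 22 rose. After the length correction 10 rose and none fell, where 17.3% of all genes tested rose. Nqo1, the quinone reductase, had the largest rise, from 2.92 ± 1.34 to 7.17 ± 2.21 CPM (1.35 ± 0.294 SE, adjusted p = 0.00206), without overlap, on 12 to 34 fragments per young mouse. Slc7a11, the transporter that imports cystine for glutathione synthesis, fell from 132 ± 10.6 to 81.9 ± 11.8 CPM (-0.69 ± 0.092 SE, adjusted p = 7.16e-05), also without overlap, and lost its call after the length correction (-0.24, adjusted p = 0.126). The 5 tested targets that were not called were Gclc, the catalytic subunit of glutathione synthesis (-0.04, adjusted p = 0.916), Txnrd1, the transketolase Tkt (0.19, adjusted p = 0.0635, called higher in 6 of 24 settings), Osgin1 (-0.05, adjusted p = 0.761) and the transferase Gstm1 (0.21, adjusted p = 0.575). Hmox1, heme oxygenase, stands both in this list and among the resident macrophage genes.

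Of 23 tested genes of the glutathione system, 10 rose and 2 fell (median 0.34), where 22.4% of all genes tested rose. Ggt1, which breaks down extracellular glutathione, rose most, from 7.92 ± 0.601 to 17.9 ± 8.09 CPM (1.19 ± 0.236 SE, adjusted p = 0.00112), and Slc7a11 fell most. Of 21 genes of the thioredoxin and peroxiredoxin system, 11 rose and none fell (median 0.35). Without the members of the 10 genes, 8 of 21 rose in the glutathione system and 8 of 18 in the thioredoxin and peroxiredoxin system. Of 13 tested genes in the list of superoxide and hydrogen peroxide enzymes, 7 rose and none fell (median 0.48), and 4 of those that rose are among the 10 genes. This list also holds Hvcn1 and Ccs, which are not such enzymes, and neither was called. After the length correction 5 rose and 1 fell in the glutathione system, 7 rose and none fell in the thioredoxin and peroxiredoxin system, and 3 rose and none fell among the superoxide and hydrogen peroxide enzymes, where 17.3% of all genes tested rose.

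Of 14 genes of selenoprotein synthesis and small selenoproteins, 4 rose and 1 fell (median 0.25), close to the 22.4% of all genes tested that rose, and after the length correction 2 rose and 1 fell (median 0.074). Sep15, of the endoplasmic reticulum, rose from 87.5 ± 13.8 to 121 ± 7.01 CPM (0.47 ± 0.094 SE, adjusted p = 0.00116). Sepp1, which carries selenium, rose from 84.9 ± 16.02 to 153 ± 81.6 CPM (0.85 ± 0.258 SE, adjusted p = 0.0148) and was not called without O1 and O2 (0.40, adjusted p = 0.0664) or without Y5 and Y6 (0.67, adjusted p = 0.0947). Secisbp2, which binds the element that recodes the stop codon to selenocysteine, fell from 20.9 ± 5.02 to 13.6 ± 1.31 CPM (-0.62 ± 0.142 SE, adjusted p = 0.00279). Of the 3 tested methionine sulfoxide reductases, Msrb1 rose from 669 ± 145 to 923 ± 154 CPM (0.46 ± 0.145 SE, adjusted p = 0.0171), whereas Msra (0.23, adjusted p = 0.0501) and Msrb2 (-0.14, adjusted p = 0.411) did not pass the test. Msra was called higher in 7 of 24 settings, and with length offsets Msrb2 was called lower (-0.44, adjusted p = 0.0122). Msrb1 lost its call after the length correction (0.09, adjusted p = 0.5675) and without Y5 and Y6 (0.26, adjusted p = 0.0769).

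**Figure D5:**
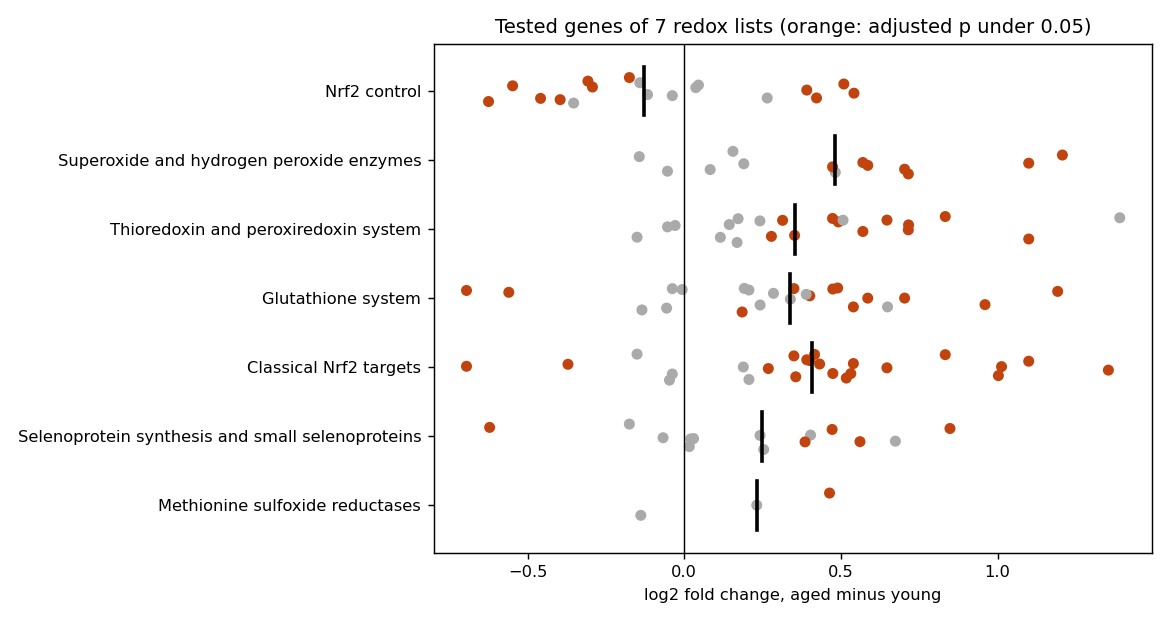
Each point is 1 tested gene of a redox list, placed by its log2 fold change (aged minus young) and orange where the adjusted p is under 0.05, with the list median as a black bar. The medians run from -0.13 for Nrf2 control to 0.48 for the superoxide and hydrogen peroxide enzymes, and some genes stand in more than 1 list.

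The genes whose pattern over the 12 mice was most like that of each regulator were found by root mean square distance of centred log2 CPM among 6590 genes with a mean of at least 10 CPM. For Nfe2l2 they were Set, Actn1 and Skiv2l2 (distances 0.0735, 0.0751 and 0.0776, where Nfe2l2 itself had a spread of 0.136). For Keap1 they were Midn, Lipe and Hnrnpul1 (0.0804, 0.0805 and 0.0807, with a spread of 0.126 for Keap1). These distances are descriptions over 12 libraries that share their scaling.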

How the data were processed

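The authors deposited 1 table of whole-number counts per gene, made with featureCounts 2.0.0 from stranded paired-end libraries, and per the file headers against UCSC mm10 gene models, with a mapping quality minimum of 60 and only properly placed pairs. The aligner is not given in the sources used here. Fold changes and p-values came from edgeR 4.0.16 (quasi-likelihood test, TMM, filterByExpr, Benjamini-Hochberg over all 9742 genes tested) in R 4.3.3, and every adjusted p in the text is from this fit or a named alternative. CPM are TMM-scaled. Exon lengths were those of the table. Length offsets were a spline on 5 degrees of freedom of each library's log2 CPM deviation, and DESeq2 1.42.0 and limma 3.58.1 gave alternatives. The scripts were tested on simulated data. No library was a copy of another of its age, since any 2 libraries of an age differed by more than sampling noise. This does not test whether 2 libraries came from 1 mouse.

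Members and lists were chosen with earlier results of these data known. Named genes were the members in every mouse, from each list the smallest p, the largest rise and the largest fall among called genes with a mean of at least 1 CPM, uncalled genes where there were 5 or fewer, the tested paralogs, and 3 genes nearest to each regulator. Near copies of at least 300 bases at 90% identity (blastn 2.17.0, GENCODE M21) exist for Sod1, Gpx4, Prdx1 and Txn1, and part of Prdx5 is shared with Trmt112, so reads of these could be dropped or misplaced. GC offsets used GENCODE M21 transcripts, with a value for 94.4% of the genes tested. Mitochondrially encoded genes and Ly6g were not analysed here.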

Additional observations from a re-analysis of the deposited data

Results flagged for a closer look

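Of 20 groups of 6 mice tested with Dixon's criterion for a value far from the rest, 2 stood out, and chance flags about 1 in 20 such groups. Both were in the aged mouse O7, the most deeply sequenced library with 16300374 fragments. Nfe2l2 in O7 was 236.63 CPM, where the nearest aged mouse had 199.71 CPM and the lowest 184.61 CPM. Gpx4 in O7 was 54.505 CPM, below the next aged mouse at 80.651 CPM and the highest at 95.187 CPM. O7 was also the lowest aged mouse for 4 of the 10 genes. Its sum of the cycling cell genes was 1057 CPM, the highest of the aged mice, and its part in these values was not tested. Without O7 the count of called members was 6, all higher, Sod1 being added. Calls over all genes rose too, to 2366 of 9804 tested called higher, against 2185 of 9742 with all mice.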

How the results depend on the processing

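Prdx1, Gpx4 and Txn1 were called higher under all 24 alternatives, and Gpx1 and Prdx5 under 23 of 24, the exception being length offsets. Length offsets left 3 members called, a member median of 0.21 and 32 of 97 redox list genes called, against 5, 0.53 and 51. Of all 9742 genes tested, 3238 were called with length offsets, against 4425, so the redox list share was then near that of all genes. Without Y5 and Y6 the median was 0.32 and 34 redox list genes were called, where 3157 of all 9857 genes tested were. Without TMM 1682 genes were called higher and 2762 lower, against 2185 and 2240. Signs turned for Keap1 without TMM (-0.040), with GC offsets (-0.026) and without Y5 and Y6 (-0.034), for Cat without O1 and O2 (-0.045), for Gstm1 with length offsets (-0.085) and without O1 and O2 (-0.29), and for Gclc with upper-quartile scaling (0.00062), thinned libraries (0.060), length offsets (0.012) and without Y5 and Y6 (0.16), and these named genes were not called. Of the called redox list genes, Gsk3b (-0.18 to 0.23, adjusted p = 0.0291) and Mgst1 (0.35 to -0.011) turned sign with length offsets. The cause was not tested. Leaving out 1 mouse at a time gave -0.19 to 0.086 for Gclc, -0.11 to 0.013 for Osgin1 and -0.082 to 0.33 for Gstm1. The pairs Y5 with Y6 and O1 with O2 were chosen after seeing the data.

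The replicate numbers shared by both ages (1, 2, 5 and 6) did not pair the mice: correlations of same-numbered mice ran from -0.25 to -0.07. With the replicate block, on 8 mice, 6 members were called, Sod1 being added, the member median was 0.80, and Osgin1 (0.11), Msrb2 (0.065) and Prdx6 (0.052) turned positive. All 6 members were called higher, where 1586 of all 9821 genes tested in that fit were. No mouse correlated best with its own number. Sod1 and Prdx1 rest on few fragments per mouse, and Gpx3, Nqo1 and Prdx2 on fewer in young mice (8 to 21, 12 to 34 and 25 to 60). Gpx3 did not enter the fit that asked for at least 10 counts in every mouse. The part of counting noise in the spread of these genes was not tested.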
